A study of Homo sapiens with 16 samples.

Results

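The 45 genes described here drive the cell division cycle and the copying of DNA, and are 45 of the 27311 genes listed for 16 bulk RNA sequencing libraries of 4 human immune cancer lines. They were taken by gene symbol. They comprise 25 genes of the start and course of S phase and 20 genes of mitosis. All 45 had at least 1 TPM (a level per gene corrected for transcript length and depth) in at least 2 libraries, as did 14398 genes in all, which were tested.

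Stimulated THP-1 cells, a monocytic line that carried dCas9-KRAB (a Cas9 that cannot cut, joined to a repressor domain), received bacterial lipopolysaccharide (LPS) at 1 µg/ml, and their untreated controls carried dCas9-KRAB too. Stimulated U937 cells, a wild-type monocytic line, received LPS at 200 ng/ml. Stimulated Jurkat cells, a wild-type T cell line, were given anti-CD3 (5 µg/ml) together with PMA (100 ng/ml), a phorbol ester. Stimulated BJAB cells, a wild-type B cell line, were given anti-IgM (10 µg/ml) together with anti-CD40 (4 µg/ml). Every stimulation lasted 4 h, each line had an untreated group, and each of the 8 groups held 2 libraries made by SmartSeq2, which copies RNA from an oligo-dT primer. No label says whether the libraries of a group came from separate cultures, so the p-values measure a spread that may be technical. The comparisons ask whether the level of these genes changed after an immune signal, and how it differed between growing lines.

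In cycling cells, cyclin D and cyclin E kinases release E2F transcription factors from the retinoblastoma protein, and E2F turns on the genes that load and fire replication origins, supply nucleotides and build the replication fork. Later, FOXM1 and B-MYB with the MuvB complex turn on the genes of the mitotic spindle, the spindle checkpoint and anaphase, many of them through CHR and CCAAT elements. Genes of both waves are commonly used as markers of proliferation, and in leukaemia and lymphoma lines kept in growth both are active. In bulk samples, fewer cells in a phase and less RNA of a gene per cell cannot be told apart.

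The promoters of the S phase and the mitotic genes differed in the letters they held. The RefSeq promoter table (GRCh38.p14, 250 bases before to 50 after a gene start) held 36 of the 45 genes, 21 of S phase and 15 of mitosis, some of them with more than 1 start. The motifs searched on both strands were TTTCCCGC, TTTCGCGC, TTTGCCGC, TTTGGCGC or TTCCCGCC for E2F, TTTGAA or TTTAAA for CHR, and CCAAT. An E2F motif stood in the promoter of 13 of the 21 S phase genes (61.9%) and of 1 of the 15 mitotic genes (6.67%), CDK1, against 6.67% of the 27305 genes and 5.58% of the 35116 promoters in the table. A CHR motif stood in 12 of the 15 mitotic genes (80.0%) and in 4 of the 21 S phase genes (19.0%), CCNE1, CDC45, RRM2 and TK1, against 27.9% of genes and 24.0% of promoters. A CCAAT box stood in 13 mitotic genes (86.7%) and 15 S phase genes (71.4%), against 39.7% of genes and 34.6% of promoters. A match is a run of letters and not a measured binding site, the E2F letters of overlapping motifs were counted once per gene, and TTTAAA reads the same on both strands.

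The 150 bases before the start of 6 genes follow, 5′ to 3′ on the gene's strand, with motif matches in capitals. E2F2 and CCNE1 are shown because they fell in stimulated BJAB, PCNA and CDC20 because their levels differed between the untreated lines, and CCNB2 and PLK1 as mitotic promoters that hold CHR and CCAAT letters together. 
E2F2, chr1:23531234-23531383, minus strand: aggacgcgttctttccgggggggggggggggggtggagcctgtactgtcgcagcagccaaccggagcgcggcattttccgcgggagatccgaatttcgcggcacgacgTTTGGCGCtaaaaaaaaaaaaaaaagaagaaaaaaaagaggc
CCNE1, chr19:29811841-29811990, plus strand: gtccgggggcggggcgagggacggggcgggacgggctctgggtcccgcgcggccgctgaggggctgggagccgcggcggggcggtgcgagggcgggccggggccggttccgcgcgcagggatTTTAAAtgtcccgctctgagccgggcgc
PCNA, chr20:5126623-5126772, minus strand: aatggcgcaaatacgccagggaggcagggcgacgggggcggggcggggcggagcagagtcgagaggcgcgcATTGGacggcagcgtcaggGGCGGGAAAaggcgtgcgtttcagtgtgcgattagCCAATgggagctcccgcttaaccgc
CDC20, chr1:43358831-43358980, plus strand: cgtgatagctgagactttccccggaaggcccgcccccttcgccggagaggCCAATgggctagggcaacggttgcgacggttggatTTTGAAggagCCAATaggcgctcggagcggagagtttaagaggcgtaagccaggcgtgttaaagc
CCNB2, chr15:59104996-59105145, plus strand: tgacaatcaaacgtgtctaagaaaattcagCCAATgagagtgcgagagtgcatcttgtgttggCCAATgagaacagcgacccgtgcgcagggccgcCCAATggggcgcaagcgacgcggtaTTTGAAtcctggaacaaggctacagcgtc
PLK1, chr16:23678739-23678888, plus strand: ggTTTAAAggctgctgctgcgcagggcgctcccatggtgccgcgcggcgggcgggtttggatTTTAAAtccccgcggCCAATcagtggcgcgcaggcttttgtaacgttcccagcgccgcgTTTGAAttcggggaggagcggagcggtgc
The E2F match of E2F2 began 42 bases before the gene start, and the overlapping pair in PCNA began 60 and 59 bases before it. CHR matches lay 65 bases before the start of CDC20 and 29 bases before those of CCNB2 and PLK1. CCNE1, which encodes cyclin E1, held no match to these E2F letters in the window and a CHR match at 28 bases.

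Depth was 4125221 to 8431295 recovered reads per library, and the 45 genes took 0.570 to 1.12% of the TPM of a library. The lines carried the markers of their labels. Of 15 markers per lineage, at least 1 TPM was reached by 15 monocytic markers in THP-1 and 13 in U937, 15 T cell markers in Jurkat and 15 B cell markers in BJAB. The defining CD3 genes CD3D and CD3E were at 0 in the THP-1 and U937 groups, MS4A1 was at 0 in untreated THP-1 and U937, and MPO was at 0 in U937 after LPS. Markers of other lineages also reached 1 TPM. In untreated BJAB 7 monocytic and 5 T cell markers did, and in untreated Jurkat 3 monocytic and 4 B cell markers. In untreated THP-1 2 T cell and 6 B cell markers did, and in untreated U937 2 and 3. The summed B cell markers of BJAB were 2405 to 4953 TPM after stimulation and 7155 to 7709 TPM untreated, and the part of this shift in the cell cycle results was not tested.

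The first LPS library of U937 and the first stimulated library of BJAB stood apart from their replicates. Over the 45 genes, the SD of the log2 difference between the libraries of a group was 0.991 in U937 after LPS and 1.13 in stimulated BJAB, against 0.119 to 0.240 in the other groups. In the first U937 LPS library, 25 of the 45 genes lay more than 1 log2 unit below the untreated mean, as did 32.8% of all tested genes, and in the second library none did. In the first stimulated BJAB library 20 lay that far below, as did 26.1% of all tested genes, and in the second 2 did. The minichromosome maintenance genes MCM2 to MCM7, which encode the replicative helicase, summed to 465 and 1762 TPM in U937 after LPS, against 2019 and 2117 TPM untreated. They summed to 415 and 1425 TPM in stimulated BJAB, against 1456 and 1457 TPM untreated. These libraries also enter the spread that all comparisons share. Values below are from the fit to all libraries unless said otherwise. The fit without these 2 is given beside counts of called genes where the compared groups keep 2 libraries, and elsewhere mainly as a difference. It leaves 1 library in U937 after LPS and in stimulated BJAB, whose spread is then taken from the other groups. Every call between untreated lines that the fit to all libraries made among the 45 genes was also made without them. Those comparisons use the same libraries and have the same differences in both fits. Only the shared spread changed, so that keeping these calls is no separate support.

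**Figure D1:**
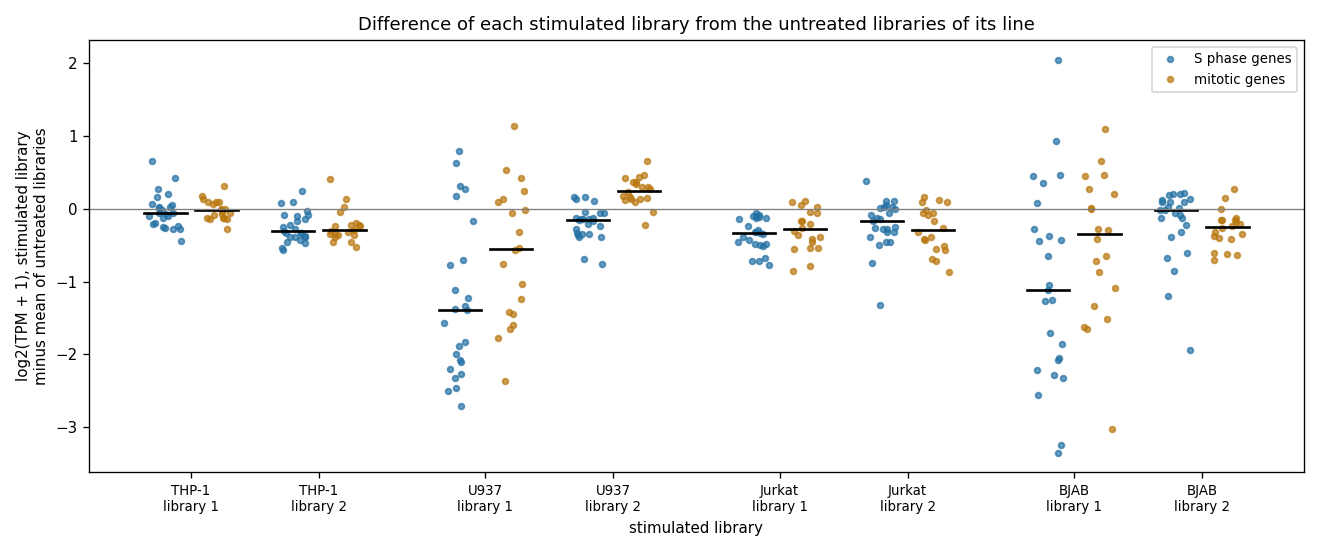
Log2(TPM + 1) of every stimulated library minus the mean of the untreated libraries of its line, for each S phase gene (blue) and mitotic gene (orange), with the median as a black bar. The first U937 and the first BJAB library spread over several log2 units, with S phase medians of -1.39 and -1.11, and the medians of the other 6 libraries lie between -0.33 and 0.25. Single genes lie lower there, such as CCNE1 at -1.94 in the second BJAB library and CDC25A at -1.32 in the second Jurkat library.

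In the first stimulated BJAB library the difference followed the base composition of the transcripts. Its Spearman correlation with GC content over the 45 genes was -0.696. The median difference was -2.05 in the 15 genes with the highest GC content (from 51.6%) and 0.01 in the 15 with the lowest (up to 44.4%). In the second library these medians were -0.13 and -0.15. The first LPS library of THP-1 had a correlation of -0.408 with medians of -0.13 and 0.03, and the first stimulated Jurkat library had -0.347 with medians of -0.45 and -0.16. In the first U937 LPS library the correlation was -0.0718 and the medians -1.38 and -1.12. With transcript length its correlation was -0.204, and the medians were -1.12 in the 15 longest and -0.17 in the 15 shortest. The points of each correlation share 1 library, and the part of base composition in the results was not tested.

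**Figure D2:**
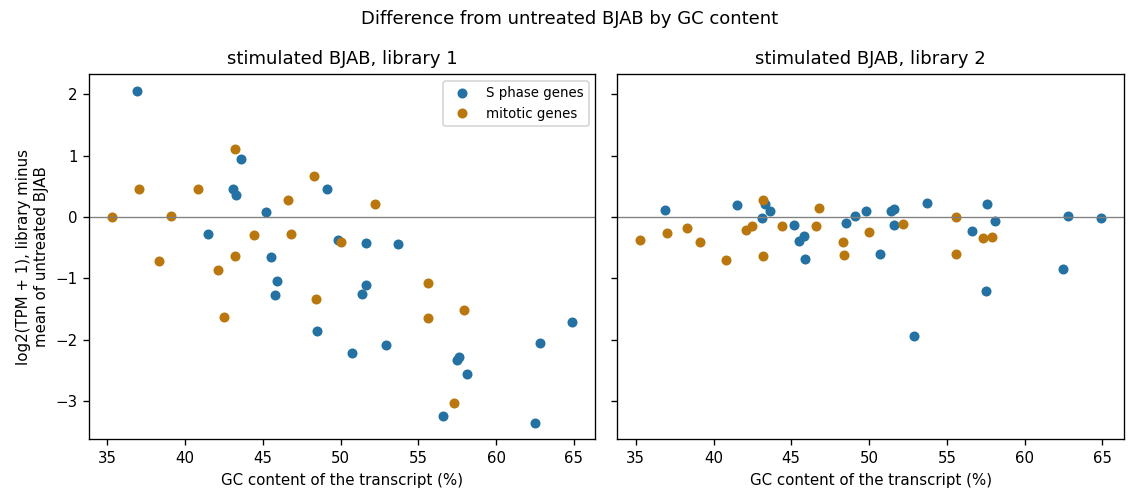
Difference of the stimulated BJAB libraries from untreated BJAB (log2(TPM + 1)) against the GC content of each gene's longest transcript, 1 point per gene. Differences fall with GC content in the first library (Spearman -0.696), and in the second they do not (Spearman 0).

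The untreated lines differed in which cell cycle genes they held at a high level, and not by one common factor. S phase genes together reached 5762 and 5459 TPM in untreated Jurkat, against 4615 and 4745 TPM in U937, 4117 and 4207 TPM in THP-1 and 3803 and 3756 TPM in BJAB. Mitotic genes together reached 5608 and 5730 TPM in THP-1, against 5432 and 4983 TPM in Jurkat, 4768 and 4448 TPM in BJAB and 3858 and 4034 TPM in U937. THP-1 thus had the highest mitotic sum, and its 2 libraries lay above those of every other line. Without CDC20 the THP-1 sum was 3615 and 3732 TPM, below the 4880 and 4484 TPM of Jurkat and the 4407 and 4096 TPM of BJAB. The sums were set by a few genes at a high level, and the S phase to mitotic ratio was 1.20 and 1.18 in U937, 1.06 and 1.10 in Jurkat, 0.798 and 0.845 in BJAB and 0.734 in both THP-1 libraries.

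**Figure D3:**
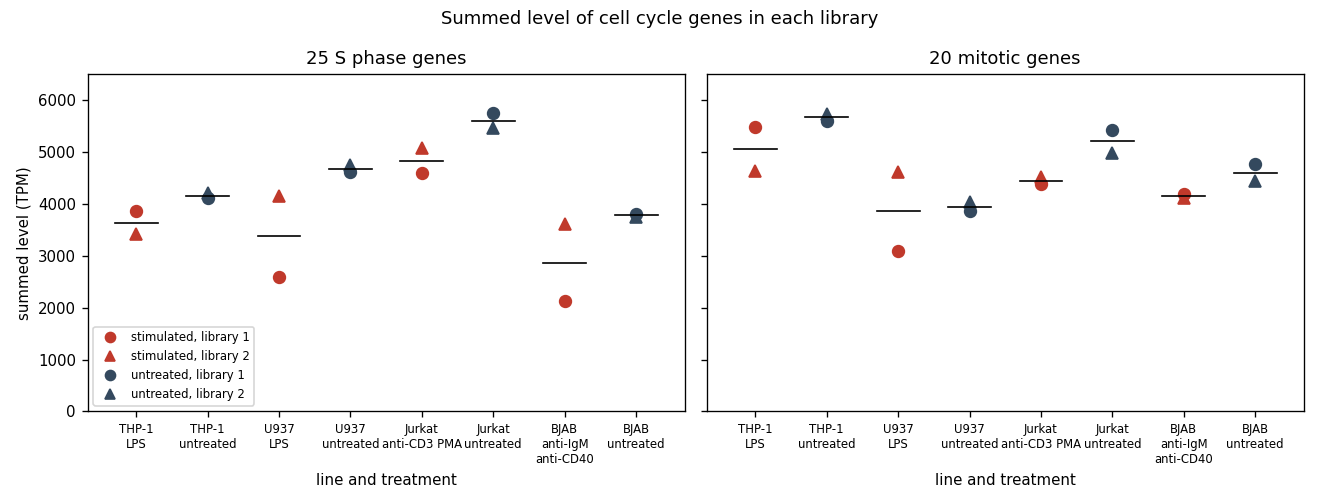
Summed level (TPM) of the 25 S phase genes (left) and the 20 mitotic genes (right) in every library, with each stimulated group left of its untreated group and bars at the group means. The libraries of U937 after LPS lie apart at 2595 and 4155 TPM in the left panel, and those of stimulated BJAB at 2127 and 3607 TPM.

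Tested against the mean of the other 3 untreated lines, 8 of the 45 genes differed in THP-1, where 34.9% of all tested genes did. In U937 10 differed (35.9% of all), in Jurkat 10 (38.0% of all) and in BJAB 12 (39.5% of all). These counts come from limma with an adjusted p under 0.05. As shares of the 45 they are 17.8%, 22.2%, 22.2% and 26.7%, each below that of all genes. Without the 2 libraries that stood apart the counts were 21 (46.7%), 30 (66.7%), 32 (71.1%) and 28 (62.2%), beside 56.0%, 57.8%, 59.2% and 59.7% of all tested genes, so that the order turned in U937, Jurkat and BJAB. By direction, THP-1 had 2 genes above the other lines and 6 below, beside 17.6% and 17.3% of all tested genes, and U937 had 5 above and 5 below, beside 15.1% and 20.8%. Jurkat had 9 above and 1 below, beside 22.0% and 16%, and BJAB had 4 above and 8 below, beside 14.5% and 25%. With 1 library left out in turn, the counts were highest without either U937 LPS library and lowest without 1 untreated library of the line itself. The share of all tested genes is not given for those fits.

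THP-1 stood out by CDC20, the activator of the anaphase promoting complex. It reached 1993 and 1998 TPM in untreated THP-1, against 352 to 552 TPM in the other untreated libraries. The difference was 2.11 ± 0.24 log2 units (SE; limma adjusted p = 3.11e-05), and it passed in each of the 28 alternatives. TK1, thymidine kinase of the nucleotide salvage pathway, was high in THP-1 at 455 and 472 TPM, as it was in BJAB at 488 and 439 TPM, against 98.6 to 112 TPM in Jurkat and U937. PCNA, the sliding clamp of the replication fork, went the other way in THP-1, with 143 and 154 TPM against 334 to 795 TPM elsewhere (-1.83 ± 0.16, limma adjusted p = 2.93e-06). E2F2, an activator of S phase genes, had 6.0 and 5.31 TPM in THP-1, against 9.08 to 25.1 TPM elsewhere (-1.47 ± 0.29, limma adjusted p = 0.00182). CDC25A, a phosphatase that activates cyclin-dependent kinases, RRM2, a subunit of ribonucleotide reductase, CCNB2 (cyclin B2) and the spindle assembly factor TPX2 were the other genes below, by 0.43 to 1.19 log2 units.

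U937 held the lowest levels of UBE2C, the ubiquitin-conjugating enzyme of the anaphase promoting complex, and of BIRC5 (survivin), a subunit of the chromosomal passenger complex. UBE2C had 66.6 and 84.0 TPM in untreated U937, against 271 to 466 TPM in the other untreated libraries (-2.33 ± 0.17, limma adjusted p = 8.82e-07). BIRC5 had 80.7 and 91.2 TPM in U937, against 250 to 605 TPM elsewhere (-2.06 ± 0.17, limma adjusted p = 2.69e-06). For both genes the U937 libraries lay below those of every other line. PCNA was highest in U937 at 795 and 777 TPM, against 143 to 609 TPM elsewhere (1.37 ± 0.16, limma adjusted p = 3.79e-05). CCNE1 had 12.6 and 18.0 TPM, against 4.27 to 8.21 TPM elsewhere (1.26 ± 0.31, limma adjusted p = 0.00781). MCM6, CCNB2 and TPX2 were also above, and TK1, MCM10, which loads the fork polymerase, and the kinetochore motor CENPE were below.

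Jurkat and BJAB lay at opposite ends for several S phase genes. TYMS, thymidylate synthase, had 359 and 365 TPM in untreated Jurkat, against 106 to 141 TPM in THP-1 and U937 and 28.3 and 42.7 TPM in BJAB. It was above the mean of the other lines in Jurkat (2.18 ± 0.45, limma adjusted p = 0.00236) and below it in BJAB (-2.28 ± 0.45, limma adjusted p = 0.00157). CHEK1, a kinase of the replication checkpoint, had 80.7 and 68.0 TPM in Jurkat, against 12.4 to 33.3 TPM elsewhere (1.70 ± 0.29, limma adjusted p = 0.00065). In BJAB the 14.3 and 12.4 TPM of CHEK1 lay below every other line. MCM6 had 86.5 and 82.1 TPM in BJAB, against 178 to 377 TPM elsewhere (-1.55 ± 0.34, limma adjusted p = 0.00343). The other helicase genes did not pass in the fit to all libraries and passed without the 2 libraries that stood apart, MCM7 in each line, MCM3 in THP-1 and BJAB, MCM4 in U937 and BJAB, MCM5 in U937 and MCM2 in Jurkat. Geminin (GMNN), which blocks relicensing, and its target CDT1 were below the other lines in BJAB, as was E2F8, a repressor of the E2F family. BIRC5 was the gene furthest above in BJAB, with 605 and 507 TPM against 80.7 to 338 TPM elsewhere (1.51 ± 0.17, limma adjusted p = 2.17e-05). CDC45, MCM10 and PCNA of the replication fork, E2F2, GMNN, CENPE and UBE2C were above in Jurkat, and TK1 was the gene below. UBE2C and E2F2 were above in BJAB too. TK1, opposite to Jurkat, was above in BJAB, while CDC20 and the checkpoint kinase BUB1 were below there.

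**Figure D4:**
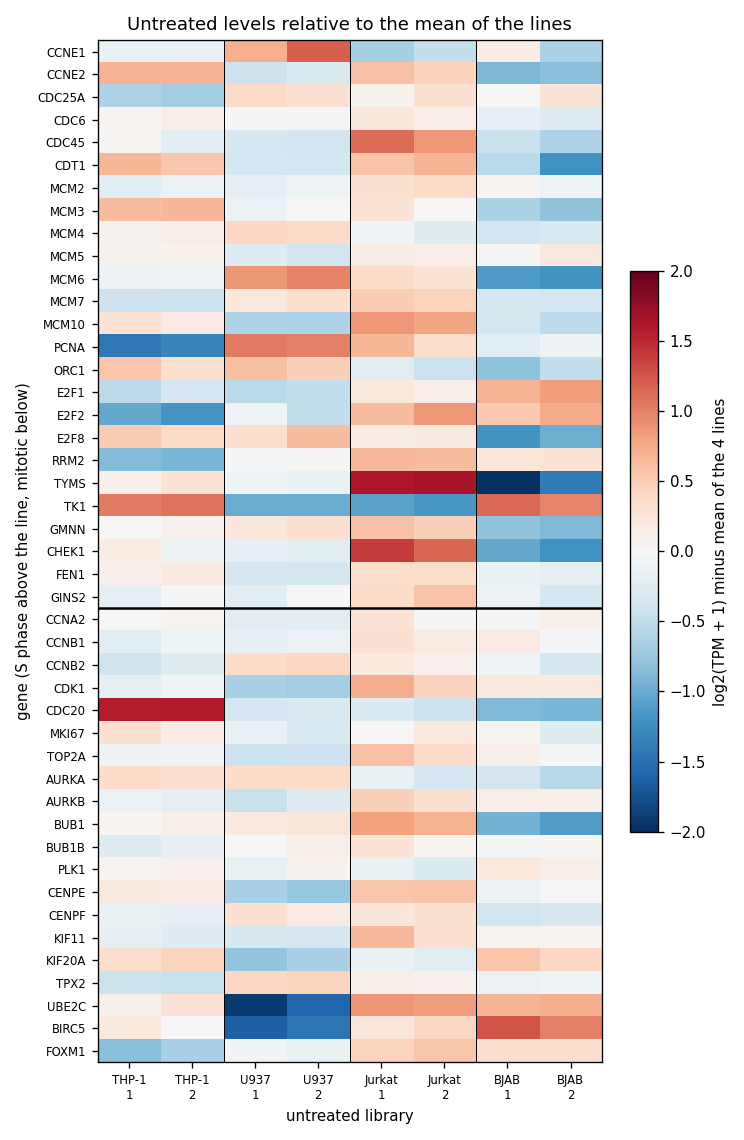
Level of each gene in the untreated libraries, as log2(TPM + 1) minus the mean of the 4 lines (red higher, blue lower), S phase genes above the black line and mitotic genes below it. Replicate libraries share their colours, and single genes such as CDC20 in THP-1, UBE2C and BIRC5 in U937 and TYMS in Jurkat stand out rather than whole blocks.

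MKI67, TOP2A, CCNB1, PLK1, AURKA and CDK1, which mark growth, did not pass in any untreated line in the fit to all libraries, and each passed in at least 1 line without the 2 libraries that stood apart. MKI67, the antigen of the Ki-67 proliferation index, had 57.6 and 52.1 TPM in untreated THP-1, 41.9 and 37.7 TPM in U937, 46.4 and 53.7 TPM in Jurkat and 48.4 and 39.4 TPM in BJAB. In that fit it was above the other lines in THP-1 (0.30) and below them in U937 (-0.30). TOP2A, topoisomerase II alpha, had 208 to 423 TPM, and CCNB1 (cyclin B1), the partner of CDK1 at mitotic entry, 426 to 618 TPM. In that fit TOP2A was below in U937 (-0.56) and above in Jurkat (0.64), and CCNB1 was above in Jurkat (0.31). PLK1, a kinase of mitotic entry, had 280 to 394 TPM and in that fit was below in Jurkat (-0.27). AURKA, a spindle pole kinase, had 111 to 211 TPM and in that fit was above in THP-1 (0.46) and U937 (0.48) and below in Jurkat (-0.32) and BJAB (-0.62). CDK1 itself had 145 to 389 TPM and was lowest in U937, where its difference was -0.89 ± 0.35 (limma adjusted p = 0.0647). The fit without the 2 libraries called CDK1 below in U937 and above in Jurkat (0.79).

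After LPS no cell cycle gene passed the test in THP-1, where 0.167% of all tested genes did. At an unadjusted p under 0.05 limma also gave 0 of 45, and voom on recovered reads gave 0 adjusted calls, as did limma without the 2 libraries that stood apart. The median log2 difference was -0.15 for S phase genes and -0.14 for mitotic genes, beside -0.06 for all tested genes. MCM3 had 467 and 396 TPM after LPS and 527 and 542 TPM untreated, and TK1 had 434 and 436 TPM after LPS and 455 and 472 TPM untreated. CDC20 had 1829 and 1577 TPM after LPS, against 1993 and 1998 TPM untreated (-0.23 ± 0.30, limma adjusted p = 1). All 6 helicase genes MCM2 to MCM7 lay below the untreated libraries in both LPS libraries, and CCNE1 lay above, with 11 and 8.02 TPM after LPS and 6.59 TPM in both untreated libraries. In all, 12 S phase and 9 mitotic genes lay below without overlap, as did 22.5% of all tested genes. CCNE1 and CDC25A of S phase and CENPE of mitosis lay above, as did 12.2% of all. CCNB1 had 478 and 380 TPM after LPS and 426 and 470 TPM untreated, and its groups overlapped.

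The remaining regulators in THP-1 had differences between -0.42 and 0.25. E2F1 had 18.1 and 14.5 TPM after LPS, against 20.5 and 23.6 TPM untreated, and its groups did not overlap. E2F2 had 7.05 and 4.3 TPM after LPS and 6 and 5.31 TPM untreated, and CDC25A had 11.7 and 8.95 TPM after LPS and 8.65 and 8.21 TPM untreated. CCNE2 overlapped between the groups, with 127 and 87.4 TPM after LPS and 112 and 114 TPM untreated. CDC6, which loads the helicase at origins, had 92.1 and 76 TPM after LPS, against 96.4 and 102 TPM untreated, and MCM2 had 193 and 159 TPM after LPS, against 222 and 241 TPM untreated. PCNA overlapped between the groups, with 171 and 138 TPM after LPS and 143 and 154 TPM untreated. Among mitotic genes, PLK1 had 323 and 278 TPM after LPS, against 354 and 361 TPM untreated, and AURKA had 204 and 160 TPM after LPS, against 211 and 206 TPM untreated. The groups of PLK1 and AURKA did not overlap. CDK1 had 244 and 167 TPM after LPS and 208 and 222 TPM untreated, and TOP2A had 289 and 213 TPM after LPS and 260 and 268 TPM untreated, and both overlapped. MKI67 was nearly the same in all 4 libraries, with 57.5 and 53.2 TPM after LPS and 57.6 and 52.1 TPM untreated. By role, the medians ran from -0.26 for the 10 licensing genes to -0.04 for the 2 genes of mitotic chromosomes.

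In U937 no cell cycle gene passed after LPS either, where 0.0278% of all tested genes did. At an unadjusted p under 0.05 limma gave 8 S phase and 2 mitotic genes, a count for which the share of all tested genes is not given. In the first LPS library 32.8% of all tested genes lay more than 1 log2 unit below the untreated mean. With voom on recovered reads there were 0 adjusted calls. The median difference of S phase genes was -0.83, and -0.15 without the 2 libraries that stood apart. The median of mitotic genes was -0.21, and 0.25 without them. The median over all genes was -0.25 in this contrast and 0 with median-of-ratios scaling, under which the S phase median was -0.37 and the mitotic median turned to 0.28. MCM7 had 134 and 535 TPM after LPS, against 561 and 609 TPM untreated, so that the shift lay mainly in 1 library (-1.12 ± 0.69, and -0.13 without the 2 libraries). PCNA had 893 and 713 TPM after LPS and 795 and 777 TPM untreated, and the groups overlapped. E2F2 was low in both LPS libraries, at 5.84 and 5.91 TPM, against 12.5 and 9.08 TPM untreated (-0.77 ± 0.35, limma adjusted p = 0.331). Cyclin B2 had 724 and 718 TPM after LPS, against 600 and 622 TPM untreated (0.24 ± 0.17, limma adjusted p = 0.441). UBE2C had 166 and 119 TPM after LPS, against 66.6 and 84.0 TPM untreated (0.90 ± 0.20, limma adjusted p = 0.261). In all, 17 S phase genes and the mitotic genes CDC20 and KIF11 lay below without overlap, beside 30.7% of all tested genes. CDT1 and 5 mitotic genes (CCNB2, AURKB, CENPE, CENPF and UBE2C) lay above, beside 11.2% of all. With the second LPS library left out instead of the first, 26 of the 45 genes passed, 24 of them lower, beside 34.8% of all tested genes.

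By role, the U937 medians were -1.10 for the 10 licensing genes, -1.02 for the 3 genes of nucleotide supply, -0.77 for the 7 G1/S regulators and -0.68 for the 5 genes of origin firing and the fork, and -0.25, -0.05, -0.27 and -0.14 without the 2 libraries that stood apart. Several of these genes were low mainly in the first LPS library. E2F1 had 2.31 and 16.1 TPM after LPS, against 20.4 and 21 TPM untreated. CCNE2 had 10.1 and 59 TPM after LPS, against 52.1 and 56.9 TPM untreated. CDC6 had 25.1 and 72.9 TPM after LPS, against 92.2 and 91.8 TPM untreated, and MCM2 had 48.2 and 211 TPM after LPS, against 227 and 245 TPM untreated. In all 4 genes the first LPS library was the lowest by far, and for CCNE2 the second was above the untreated libraries. CCNE1 and CDC25A overlapped, CCNE1 with 18.5 and 8.93 TPM after LPS and 12.6 and 18 TPM untreated and CDC25A with 10.6 and 20.2 TPM after LPS and 18.3 and 17.3 TPM untreated. GMNN and GINS2 were highest in the first LPS library among the 4 of U937. GMNN had 417 and 261 TPM after LPS and 260 and 279 TPM untreated. GINS2, a subunit of the GINS complex of the fork helicase, had 318 and 157 TPM after LPS and 172 and 198 TPM untreated. The mitotic kinases were split between the LPS libraries. PLK1 had 105 and 458 TPM after LPS and 308 and 357 TPM untreated. CDK1 had 53.2 and 163 TPM after LPS and 149 and 145 TPM untreated, and AURKA had 147 and 286 TPM after LPS and 211 TPM in both untreated libraries. For these 3 genes the LPS libraries lay on either side of the untreated ones. TOP2A did the same, with 102 and 237 TPM after LPS and 208 and 211 TPM untreated. CDC20 had 428 and 516 TPM after LPS, against 520 and 540 TPM untreated. CCNB1 had 441 and 563 TPM after LPS and 449 and 464 TPM untreated, and MKI67 had 39.2 and 43.5 TPM after LPS and 41.9 and 37.7 TPM untreated. Of these 3 genes CDC20 alone did not overlap.

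In Jurkat no cell cycle gene passed after anti-CD3 and PMA in the fit to all libraries, where 4.87% of all tested genes did. Without the 2 libraries that stood apart, 9 genes passed, all of them lower (2 of S phase and 7 of mitosis), beside 6.83% of all tested genes lower. Some genes also passed when either U937 LPS library alone was left out. The Jurkat libraries are the same in these fits. At an unadjusted p under 0.05 limma with all libraries gave 2 genes of each class, a count for which the share of all tested genes is not given. With voom on recovered reads there were 0 adjusted calls. BUB1B, which encodes the checkpoint protein BUBR1, had 69.1 and 68.7 TPM after stimulation, against 136 and 116 TPM untreated. Its difference was -0.85 ± 0.28 (limma adjusted p = 0.153), with an adjusted p of 0.00388 in the limma fit without the 2 libraries and 0.00194 to 0.594 over the 28 alternatives. BIRC5 had 185 and 216 TPM after stimulation, against 300 and 338 TPM untreated (-0.67 ± 0.21, limma adjusted p = 0.12). Its adjusted p was 0.00752 in the limma fit without the 2 libraries and 0.00589 to 0.555 over the alternatives.

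CDC25A in Jurkat had 9.37 and 5.82 TPM after stimulation, against 14.6 and 17.4 TPM untreated (-1.01 ± 0.34, limma adjusted p = 0.154). It passed in 7 of the 28 alternatives, more than any other of the 9 genes, and its adjusted p ran from 0.00626 to 0.765. Cyclin A2 (CCNA2), which acts in S phase and at mitotic entry, had 194 and 170 TPM after stimulation and 306 and 256 TPM untreated. PLK1 had 202 and 219 TPM after stimulation and 310 and 280 TPM untreated, and CDC20 had 384 and 403 TPM after stimulation and 552 and 499 TPM untreated. For these 3 genes the stimulated libraries lay below the untreated ones without overlap. BUB1, PCNA and CENPF, a kinetochore protein, completed the 9, with differences of -0.53, -0.45 and -0.39. Some genes of the same phases moved little, as CCNB1 had 573 and 641 TPM after stimulation and 618 and 561 TPM untreated, and MCM7 had 621 and 668 TPM after stimulation and 684 and 654 TPM untreated. RRM2 had 677 and 687 TPM after stimulation and 718 and 713 TPM untreated. UBE2C, which works with the same complex as CDC20, was not lower, with 496 and 514 TPM after stimulation and 466 and 454 TPM untreated. In all, 17 S phase and 13 mitotic genes lay below without overlap, beside 28.7% of all tested genes, and UBE2C lay above, beside 21.0% of all.

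By role, the lowest Jurkat median was that of the 6 checkpoint and anaphase genes, at -0.47, of which 4 passed without the 2 libraries that stood apart. The 10 licensing genes had a median of -0.30, and none of them passed in that fit. CDC6 had 76 and 97 TPM after stimulation, against 110 and 103 TPM untreated, and MCM2 had 240 and 266 TPM after stimulation, against 322 and 339 TPM untreated, both without overlap. E2F2 had 13.6 and 13.3 TPM after stimulation, against 21.1 and 25.1 TPM untreated (-0.73 ± 0.35, limma adjusted p = 0.431), and E2F1 had 30.8 and 28.4 TPM after stimulation, against 34.7 and 33.1 TPM untreated. The cyclins E overlapped between the groups, CCNE1 with 3.52 and 6.28 TPM after stimulation and 4.27 and 4.97 TPM untreated and CCNE2 with 76.8 and 102 TPM after stimulation and 105 and 95.8 TPM untreated. CDK1 overlapped too, with 366 and 334 TPM after stimulation and 389 and 324 TPM untreated. TOP2A had 378 and 378 TPM after stimulation and 423 and 362 TPM untreated, MKI67 had 53.5 and 53.5 TPM after stimulation and 46.4 and 53.7 TPM untreated and AURKA had 142 and 149 TPM after stimulation and 150 and 129 TPM untreated. These genes, unlike BUB1B and BIRC5, had stimulated libraries within or across the untreated range.

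In BJAB 2 genes passed after anti-IgM and anti-CD40, both lower and both regulators of S phase entry, where 4.76% of all tested genes were called lower and 6.40% in either direction. CCNE1 had 0.655 and 0.827 TPM after stimulation (5 and 6 reads), against 8.21 and 4.34 TPM untreated (47 and 27 reads). The difference was -2.01 ± 0.38 log2 units on the log2(TPM + 1) scale, which understates the change of low genes (limma adjusted p = 0.0102). E2F2 had 3.40 and 8.61 TPM after stimulation, against 19.4 and 22.9 TPM untreated (-1.76 ± 0.35, limma adjusted p = 0.0134). For both genes the stimulated libraries lay below the untreated ones without overlap. Without the 2 libraries that stood apart the differences were -1.94 and -1.20. CCNE1 passed in 23 of the 28 alternatives (adjusted p 0.00383 to 0.258 in limma and voom) and E2F2 in 22 (0.000572 to 0.336), and in the fit to BJAB alone, with array weights or after quantile normalization neither did. Neither passed without the first untreated BJAB library or the first stimulated one, and 1 did without the second untreated library. More genes passed without either U937 LPS library, and without the second stimulated BJAB library. The latter fit rests on the first stimulated library, where 26.1% of all tested genes lay more than 1 log2 unit below the untreated mean. In that library the median difference was -1.11 for S phase genes and -0.35 for mitotic genes, beside -0.21 for all tested genes.

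E2F1, another activator of S phase genes, had 4.18 and 28.2 TPM in stimulated BJAB, against 49.4 and 54.3 TPM untreated (-2.10 ± 0.76, limma adjusted p = 0.123). It was among 5 genes lower without the 2 libraries, with CCNE1, E2F2, CENPF and KIF20A, beside 5.89% of all tested genes lower. Its difference was -0.85 and its adjusted p 0.0152 in that limma fit and 0.00526 to 0.811 over the alternatives. KIF20A, a motor of cytokinesis, had 53.8 and 89.0 TPM after stimulation, against 144 and 131 TPM untreated (-0.98 ± 0.63, limma adjusted p = 0.373). For CENPF the stimulated libraries disagreed, with 57.4 and 25.3 TPM, against 40.9 and 42.5 TPM untreated. Cyclin E2 (CCNE2) did not follow cyclin E1, with 160 and 41.2 TPM after stimulation and 37.1 and 38.7 TPM untreated (1.08 ± 0.70, limma adjusted p = 0.374). Its difference was 0.12 without the 2 libraries.

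Several helicase and nucleotide genes of BJAB were low in the first stimulated library. MCM2 had 42.8 and 246 TPM after stimulation, against 267 and 247 TPM untreated, and TK1 had 111 and 468 TPM after stimulation, against 488 and 439 TPM untreated. PLK1 had 46.2 and 300 TPM after stimulation, against 394 and 370 TPM untreated. The differences without the 2 libraries were -0.06 for MCM2, 0.02 for TK1 and -0.35 for PLK1. MCM6 was not low in that library, with 116 and 83.5 TPM after stimulation and 86.5 and 82.1 TPM untreated, and TYMS had 26.7 and 37.4 TPM after stimulation and 28.3 and 42.7 TPM untreated. PCNA did not share this, with 368 and 317 TPM after stimulation and 334 and 360 TPM untreated, nor did BIRC5, with 642 and 510 TPM after stimulation and 605 and 507 TPM untreated. CCNB1 was higher in both libraries, at 1128 and 634 TPM, against 562 and 489 TPM untreated (0.69 ± 0.25, limma adjusted p = 0.129), a difference of 0.27 without the 2 libraries. The S phase median was -0.62, and -0.01 without the 2 libraries, and the mitotic median was -0.27, and -0.25 without them. The median over all genes was -0.14 here and 0 with median-of-ratios scaling, under which the S phase median was -0.29 and the mitotic median 0.06. In all, 11 S phase and 10 mitotic genes lay below without overlap, beside 32.9% of all tested genes, and CCNE2, MCM10, GMNN and CCNB1 lay above, beside 14.2% of all.

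By role, the 7 G1/S regulators of BJAB had a median of -0.86, and -0.68 without the 2 libraries that stood apart, while the 10 licensing genes had -0.92, and -0.08 without them. The other regulators were mixed. CDC25A had 11.1 and 16.7 TPM after stimulation and 13.7 and 16.8 TPM untreated, with overlap, and E2F8 had 3.74 and 5.09 TPM after stimulation, against 8.09 and 9.5 TPM untreated, without overlap. CDC6 had 51.3 and 61.6 TPM after stimulation, against 83.6 and 78.6 TPM untreated, and ORC1, a subunit of the origin recognition complex, had 6.87 and 23 TPM after stimulation, against 31.6 and 39.8 TPM untreated. RRM2 had 226 and 443 TPM after stimulation, against 543 and 554 TPM untreated. These 3 genes lay below the untreated libraries in both stimulated ones. CDC20 also lay below in both, with 125 and 286 TPM after stimulation, against 362 and 352 TPM untreated (-0.91 ± 0.30, limma adjusted p = 0.0928), a difference of -0.32 without the 2 libraries. BUB1B was alike in both stimulated libraries, with 71.8 and 72.5 TPM after stimulation, against 110 and 115 TPM untreated (-0.64 ± 0.28, limma adjusted p = 0.197). CDK1 had 373 and 226 TPM after stimulation and 273 and 269 TPM untreated, and TOP2A had 287 and 214 TPM after stimulation and 300 and 272 TPM untreated. AURKA had 143 and 106 TPM after stimulation and 126 and 111 TPM untreated, and MKI67 had 69.7 and 32.9 TPM after stimulation and 48.4 and 39.4 TPM untreated. These 4 genes overlapped, and in each except TOP2A the first stimulated library was the highest of the 4 BJAB libraries.

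**Figure D5:**
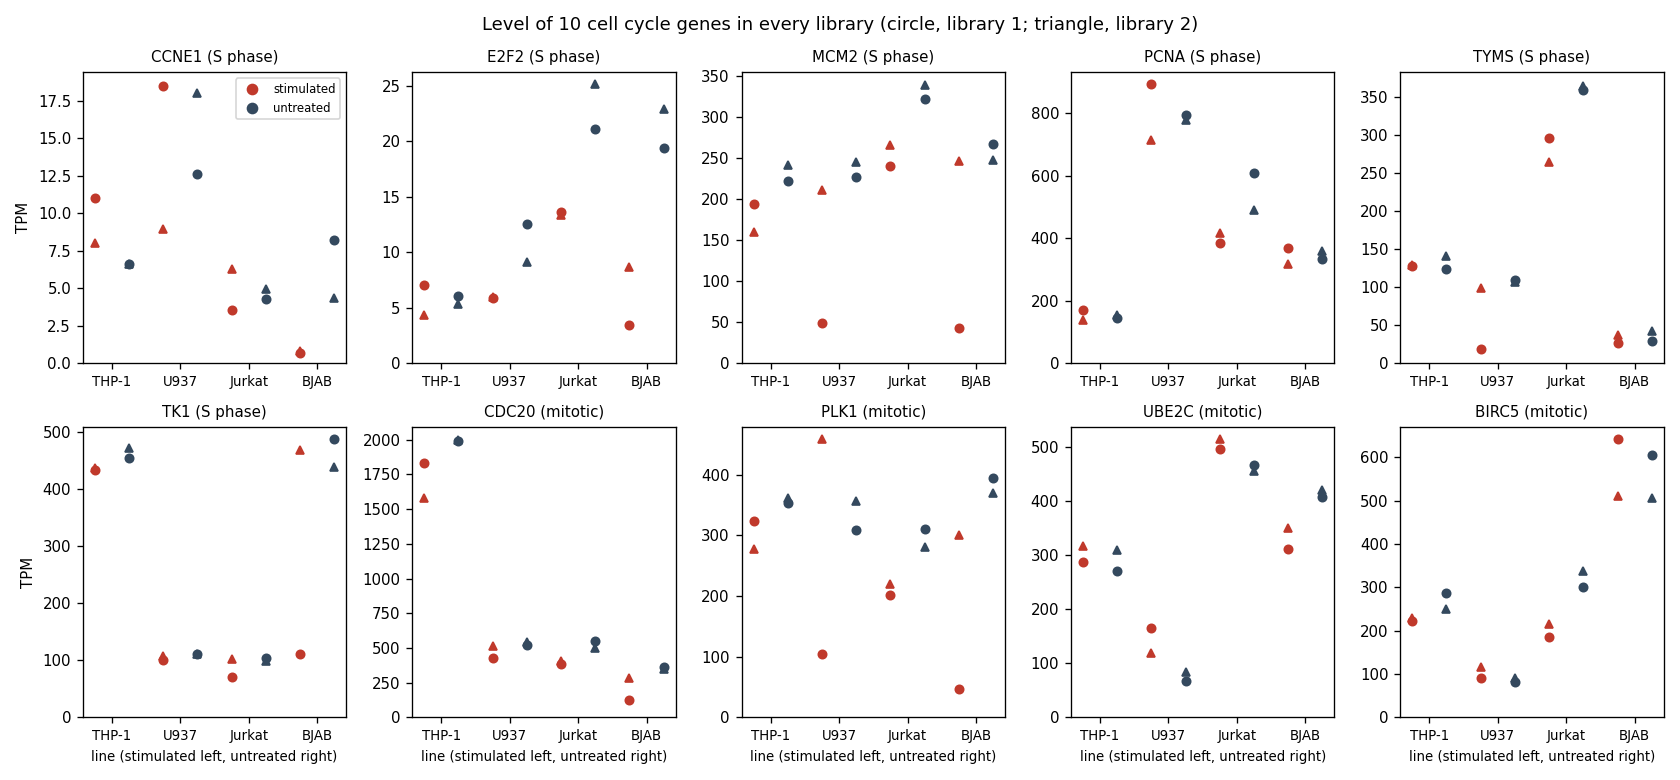
TPM of 10 cell cycle genes in every library, stimulated (red) left of untreated (dark) for each line, circles for library 1 and triangles for library 2. CCNE1 and E2F2 are low in both stimulated BJAB libraries, MCM2 is low in 1 library each of stimulated U937 and BJAB, and CDC20 stands highest in THP-1, TYMS in Jurkat and UBE2C lowest in U937.

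No cell cycle gene differed in its response between lines at an adjusted p under 0.05 in limma. Between the LPS responses of THP-1 and U937 0.0486% of all tested genes did, and 1 of the 45 had an unadjusted p under 0.05, with 0 adjusted calls by voom. Some of the 45 passed when the second U937 LPS library was left out. That fit kept the first, where 32.8% of all tested genes lay more than 1 log2 unit below the untreated mean. LPS dose and dCas9-KRAB differ between these lines as well. Between the responses of Jurkat and BJAB, whose ligands differ, 5.24% of all tested genes did, and 2 of the 45 had an unadjusted p under 0.05, with 0 adjusted calls by voom. Calls also appeared without the second stimulated BJAB library and without either U937 LPS library. The share of all tested genes is not given for those fits, nor for the counts at an unadjusted p. CCNE1 came nearest, with a response of 0.03 in Jurkat and -2.01 in BJAB. The difference was 2.04 ± 0.54 (limma adjusted p = 0.0539), and 1.97 without the 2 libraries.

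Other genes of the same processes were read in 3 lists. In THP-1 and U937 none of the 59 other replication genes, 63 other mitotic genes or 35 tested regulators of the cell cycle passed in the fit to all libraries. At an unadjusted p under 0.05 these lists gave 0, 0 and 1 genes in THP-1 and 22, 6 and 11 in U937 in limma. The share of all tested genes at that p is not given, here or for Jurkat below. The U937 medians of the lists were -0.76, -0.13 and -0.64, beside -0.25 for all tested genes. They were -0.15, 0.17 and -0.12 without the 2 libraries that stood apart. Without the 2 libraries that stood apart, BTG2, an antiproliferative gene, was higher in THP-1 (1.46), and none passed in U937. In Jurkat the mitotic gene PIMREG was lower, with 29.7 and 36.1 TPM after stimulation and 70.3 and 67.5 TPM untreated, and none of the replication genes passed (2 at an unadjusted p under 0.05). In Jurkat 6 replication genes, 7 mitotic genes and 5 regulators were lower without the 2 libraries, beside 6.83% of all tested genes lower. Among them were UHRF1, which maintains DNA methylation at the fork (-0.72), and TACC3 of the spindle (-0.87). In that fit 2 regulators were higher. Of the regulators 2 were higher and 1 lower in Jurkat in the fit to all libraries, beside 4.87% of all tested genes in either direction. CDKN1A, which encodes the kinase inhibitor p21, had 196 and 183 TPM after stimulation, against 2.64 and 0.922 TPM untreated (6.17 ± 0.74, limma adjusted p = 0.000323). BTG1, an antiproliferative gene, was higher too (1.86 ± 0.31, limma adjusted p = 0.00358), and CDKN2D, which encodes the kinase inhibitor p19, was lower (-1.70 ± 0.41, limma adjusted p = 0.035). MYC, a driver of growth, had 127 and 137 TPM after stimulation, against 377 and 415 TPM untreated, and CCND3, cyclin D3, had 192 and 202 TPM after stimulation, against 417 and 411 TPM untreated. Neither passed in Jurkat in the fit to all libraries (limma adjusted p = 0.279 for MYC and 0.797 for CCND3), both were called lower without the 2 libraries, and their groups did not overlap.

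In the monocytic lines the 4 regulators read in every line showed no common shift. MYC had 169 and 181 TPM after LPS and 197 and 164 TPM untreated in THP-1, and 115 and 547 TPM after LPS and 568 and 565 TPM untreated in U937. CCND3 had 472 and 438 TPM after LPS and 376 and 507 TPM untreated in THP-1, and 44.6 and 190 TPM after LPS and 239 and 227 TPM untreated in U937. In U937 both were low in the first LPS library. CDKN1A had 41.1 and 35.9 TPM after LPS and 36.6 and 35.3 TPM untreated in THP-1, and 0.616 and 7.8 TPM after LPS and 4.25 and 6.04 TPM untreated in U937. CCND2, cyclin D2, had 24 and 46.7 TPM after LPS and 71.8 and 64 TPM untreated in U937 (-0.99 ± 0.27, limma adjusted p = 0.329), and was under 1 TPM in every THP-1 and Jurkat library. CCND3 in BJAB had 6.08 and 60.1 TPM after stimulation, against 91.1 and 93.0 TPM untreated (-2.16 ± 0.81, limma adjusted p = 0.138), a difference of -0.61 without the 2 libraries.

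In BJAB 1 replication gene was higher and 2 mitotic genes were lower, and of the regulators 2 were higher and 2 lower. Of all tested genes 4.76% were called lower and 6.40% in either direction. The medians were -0.27 for the replication genes, -0.23 for the mitotic genes and -0.51 for the regulators. Without the 2 libraries they were -0.19, -0.18 and -0.29. DBF4, which activates the origin-firing kinase CDC7, had 121 and 95.0 TPM after stimulation, against 46.3 and 59.3 TPM untreated (1.02 ± 0.24, limma adjusted p = 0.0293). HMMR, a spindle protein, had 34.8 and 31 TPM after stimulation, against 78.6 and 67.5 TPM untreated (-1.12 ± 0.20, limma adjusted p = 0.00658). PSRC1 was lower as well (-2.39 ± 0.44, limma adjusted p = 0.00831). GADD45B, a stress-induced growth arrest gene, had 53.9 and 127 TPM after stimulation, against 18.6 and 14.2 TPM untreated (2.28 ± 0.41, limma adjusted p = 0.00816). WEE1, the kinase that holds CDK1 inactive, had 77.2 and 58.7 TPM after stimulation, against 26.6 and 30.8 TPM untreated (1.20 ± 0.31, limma adjusted p = 0.0451). CDK6, a partner of the D cyclins, was lower (-1.47 ± 0.39, limma adjusted p = 0.0466), as was SKP2, which marks the inhibitor p27 for destruction (-1.14 ± 0.30, limma adjusted p = 0.0471). Without the 2 libraries the differences were 0.85 for DBF4, -1.20 for HMMR, -1.51 for PSRC1 and 2.89 for GADD45B. They were 1.01 for WEE1, -1.05 for CDK6 and -0.75 for SKP2. Counts are not given for that fit, which leaves 1 stimulated BJAB library. MYC had 33.6 and 119 TPM after stimulation, against 218 and 227 TPM untreated (-1.79 ± 0.63, limma adjusted p = 0.115), a difference of -0.90 without the 2 libraries. CDKN1A did not pass in BJAB, with 0.874 and 6.54 TPM after stimulation and 5.57 and 3.69 TPM untreated, and CCND2 was at 0 in all 4 BJAB libraries.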

How the data were processed

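RNA was measured in 16 libraries. Per the submitters' processing notes reads were aligned with TopHat2 to hg19. For the counting program and the annotation the sources used here give no name. The authors deposited TPM per gene, from unique alignments by the files' own naming, without gene positions. Whole reads could be recovered from TPM steps for 93.5% of the genes above 0 (17860, tolerance 0.001), and gave the depth. limma 3.58.1 (R 4.3.3) modelled log2(TPM + 1) over the 16 libraries with 1 mean per group, the prior spread following the mean level (trend). Genes needed 1 TPM or more in 2 or more libraries. The two-sided p-values were adjusted by Benjamini-Hochberg across the 14398 genes that met this, and 0.05 was the threshold. Tested on simulated data for the BJAB stimulation over 14398 genes, the fit recovered 9% of changes of 1 log2 unit and 72% of changes of 2, and called 5 unchanged genes.

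The 45 genes and all lists were chosen with earlier results of these data known. By rule, values were given for 15 fixed genes, for the largest called changes and for the highest genes where few were called. Other genes were named after their values were seen. The rule for other lists was up to 4 called genes by size, and always CDKN1A, MYC, CCND2 and CCND3. GC content and length come from GENCODE 29, longest basic transcript. Alternatives were 2 pseudocounts, 2 filters, 2 scalings, no trend, a replicate block, array weights, the compared lines alone, voom, the 2 libraries that stand apart left out, and each library left out in turn.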

Additional observations from a re-analysis of the deposited data

Results flagged for a closer look

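For 3 genes every library of one line moved one way after stimulation and every library of the other line moved the opposite way. AURKB, a kinase of the chromosomal passenger complex, had a response of -0.14 log2 units in THP-1 and 0.39 in U937, a difference of -0.53 (limma adjusted p = 0.746). CENPF had a response of -0.16 in THP-1 and 0.13 in U937, a difference of -0.29 (limma adjusted p = 0.823). UBE2C had a response of 0.13 in Jurkat and -0.32 in BJAB, a difference of 0.46 (limma adjusted p = 0.472). The opposite directions were what singled these genes out; the difference itself did not pass in any of the 3.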

How the results depend on the processing

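THP-1 and U937 after LPS had 0 called genes in each of the 12 alternatives other than leaving out 1 library. In Jurkat after stimulation the count was 1 with median-of-ratios scaling, 3 with quantile normalization, 6 with array weights, 7 in Jurkat alone and 9 without the 2 libraries that stood apart (the first stimulated ones of U937 and of BJAB). In BJAB it was 0 with quantile normalization, array weights or BJAB alone. It is not given without those libraries, as 1 stimulated BJAB library is then left. For the difference between Jurkat and BJAB the count was 1 with a pseudocount of 0.1 and with quantile normalization. For untreated THP-1, U937, Jurkat and BJAB the counts were 23, 29, 31 and 26 with array weights, 21, 30, 32 and 28 without those libraries, and 27, 34, 36 and 31 with the untreated libraries alone. Quantile normalization gave 19 in U937 and 18 in Jurkat.

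Leaving out 1 library in turn gave 0 called genes in THP-1 after LPS, 0 to 26 in U937 (26 without LPS replicate 2), 0 to 3 in Jurkat (3 without either U937 LPS library) and 0 to 19 in BJAB. The BJAB count was 19 without stimulated replicate 2, 8 without either U937 LPS library, 1 without untreated replicate 2, and 0 without untreated replicate 1 or stimulated replicate 1. It gave 3 to 13 in untreated THP-1, 4 to 15 in U937, 4 to 20 in Jurkat and 8 to 17 in BJAB, 0 to 13 for the difference between THP-1 and U937, and 0 to 10 for that between Jurkat and BJAB. A group left with 1 library is assumed to vary like the others. For these counts the share of all tested genes is not given here. Without stimulated replicate 2 of BJAB the comparison rests on replicate 1, where 26.1% of all tested genes lay more than 1 log2 unit below the untreated mean.

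With median-of-ratios scaling the S phase sums were 4040 TPM in untreated THP-1, 4316 in untreated U937, 4128 in stimulated and 4625 in untreated Jurkat, and 3536 in untreated BJAB. The mitotic sums were 5502 in untreated THP-1, 3639 in untreated U937, 3790 in stimulated and 4292 in untreated Jurkat, and 4965 in stimulated and 4312 in untreated BJAB. In U937 the scaled S phase sums were 4526 and 3985 after LPS, on either side of the 4229 and 4403 untreated. Its mitotic sums were 5408 and 4436 after LPS, against 3536 and 3743 untreated. In BJAB the scaled S phase sums were 2922 and 3638 after stimulation and 3592 and 3480 untreated. Its scaled mitotic sums were 5772 and 4158 after stimulation and 4504 and 4121 untreated, so that the higher mean came from the first stimulated library. The cause of these shifts was not tested.

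The labels give groups of a line the same replicate numbers, with no word on what they mark. Deviations of same-numbered libraries correlated at 0.012 in THP-1, -0.0421 in U937, 0.0174 in Jurkat and 0.142 in BJAB, with 2 pairs per line, so the numbers were not taken as pairs. With a replicate block the counts were 5, 8, 9 and 11 in untreated THP-1, U937, Jurkat and BJAB, and 0, 0, 0 and 2 after stimulation in those lines. The share of all tested genes is not given for that fit. Of the values of single genes under the alternatives, 4562 kept their side of the threshold, 160 came to pass it and 38 ceased to. Among the values that passed in neither fit, 140 had the other direction. With 2 libraries per group and the recovery of small changes on simulated data, a gene that did not pass is not shown to be unchanged.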
